A study of Mus musculus with 24 samples.

Results

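The 38 genes described here belong to the endoplasmic reticulum (ER) stress response and the integrated stress response of mouse liver. They were taken by symbol, and all 38 were found among the 46093 gene symbols of both deposited count tables. They comprise 4 genes for the stress sensors and the transcription factor Xbp1, 14 for chaperones and foldases of the ER lumen and membrane, 7 for ER-associated degradation, 2 for protein translocation and export, and 11 for the integrated stress response. Liver RNA of C57BL/6 mice was sequenced in 8 groups of 3 libraries. In each sex these were null mice on a high-fat diet (HFD), wild-type (WT) mice on HFD, null mice on normal chow (ND) and WT mice on ND. Null mice are labelled Cyp2bnull in males and KO in females. The targeted genes, Cyp2b9, Cyp2b10 and Cyp2b13, encode hepatic cytochrome P450 enzymes. The HFD held 60% fat, and either diet was given for 10 weeks. Neither the age of the mice nor the way the deletion was made is stated in the labels.

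The unfolded protein response is the reaction of a cell to unfolded protein in the ER. It runs through membrane sensors: IRE1, encoded by Ern1, which splices the Xbp1 mRNA; ATF6, which is cleaved into a transcription factor; and PERK, encoded by Eif2ak3, which phosphorylates the translation factor eIF2α. XBP1 and cleaved ATF6 raise chaperones, disulfide isomerases and degradation factors, whereas phosphorylated eIF2α favours translation of ATF4 and so its targets, an arm that other kinases also feed in the integrated stress response. Hepatocytes carry a large load of secreted protein and lipoprotein, and these pathways are commonly examined in fatty liver.

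Counts per library summed to between 8.28 M and 20.2 M in males and to between 2.01 M and 2.66 M in females, so low transcripts were counted less precisely in females. Extraction and library kit differ between the sexes and cannot be told apart from sex. In 6 female libraries the genotype field contradicts the title. The titles were followed, and Cyp2b13 counts went with them: 0 in the 6 null libraries and 565 to 1138 in the 6 WT libraries. In males Cyp2b13 counts were 37 to 64 in null HFD, 40 to 85 in WT HFD, 7 to 89 in null ND and 23 to 33 in WT ND. Male Cyp2b9 counts were 24, 29 and 59 in null ND, above the 1, 2 and 4 in WT ND. Male Cyp2b10 counts went the other way on ND, with 4, 15 and 15 in null and 97, 34 and 30 in WT. On HFD Cyp2b9 had 36, 85 and 19 counts in null and 354, 48 and 797 in WT males, which overlapped, as did Cyp2b10. The targeted genes thus did not settle the label, and "labelled null" is written for these males. Male labelled null ND library 1 stands apart, with 32.0% mitochondrial counts, against at most 7.76% in the other male libraries, and a median Spearman correlation of 0.8002 with them. Among females, WT ND library 1 and WT HFD library 1 had the highest mitochondrial shares, 14.0% and 8.54%, against at most 7.17% in the other 10. The hepatocyte list summed to between 42459 and 143306 CPM, and all 8 of its genes were detected. In bulk liver, fewer cells of a type and less RNA per cell cannot be told apart. Whether each library is a separate animal is not stated, so the p-values below measure the spread between these libraries, which may be technical.

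Of the 12 chaperone genes with a promoter sequence, 7 held the element named after the response and 4 held neither of its forms. The ER stress response element (ERSE), written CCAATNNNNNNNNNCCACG, is bound by NF-Y at its CCAAT end and by ATF6 or XBP1 at its CCACG end. Promoters were read from RefSeq (GRCm38.p6) as 250 bases before to 50 after each gene's start, with an entry for 34 of the 38 genes and none for Hyou1, Derl1, Atf6 and Manf. ERSE occurred on either strand in 9 of these 34 (26.5%), against 37 of all 27025 genes with a promoter (0.137%). The Hspa5 promoter is shown because Hspa5 encodes BiP, the main Hsp70 chaperone of the ER. It lies at chr2:34771840-34772089 on the plus strand. Capitals mark a TGACGTG core of the unfolded protein response element (UPRE) and, nearer the start, the ERSE.
Hspa5: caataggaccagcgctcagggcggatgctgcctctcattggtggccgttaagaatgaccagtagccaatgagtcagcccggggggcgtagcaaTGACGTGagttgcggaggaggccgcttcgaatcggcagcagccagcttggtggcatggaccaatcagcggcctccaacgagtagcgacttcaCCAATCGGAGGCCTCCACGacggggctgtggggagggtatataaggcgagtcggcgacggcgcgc

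The ERSE of the other 8 genes is shown on the gene's own strand, with the element in capitals, so that its orientation and spacer can be compared. In Canx, Dnajc3, Pdia6 and Syvn1 it reads as written above, and in Calr, Creld2 and Derl3 it reads as the reverse complement (CGTGG first). Hsp90b1, which encodes GRP94, the Hsp90 chaperone of the ER, holds one of each.
Calr (chr8:84847069-84847099, minus strand): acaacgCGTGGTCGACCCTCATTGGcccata
Canx (chr11:50325794-50325824, minus strand): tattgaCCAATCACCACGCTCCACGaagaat
Creld2 (chr15:88819514-88819544, plus strand): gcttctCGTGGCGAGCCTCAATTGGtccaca
Derl3 (chr10:75893236-75893266, plus strand): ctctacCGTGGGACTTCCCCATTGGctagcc
Dnajc3 (chr14:118937821-118937851, plus strand): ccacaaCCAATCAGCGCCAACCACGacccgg
Hsp90b1, upstream (chr10:86705632-86705662, minus strand): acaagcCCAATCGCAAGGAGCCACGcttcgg
Hsp90b1, downstream (chr10:86705527-86705557, minus strand): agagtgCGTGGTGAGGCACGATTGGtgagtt
Pdia6 (chr12:17266485-17266515, plus strand): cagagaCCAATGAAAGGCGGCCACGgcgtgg
Syvn1 (chr19:6046526-6046556, plus strand): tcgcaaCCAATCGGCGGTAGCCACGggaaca

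A second form, ERSE-II, which is ATTGG, any 1 base and then CCACG, was searched on both strands. It occurred in Dnajb11 and Herpud1, 2 of the 34 genes (5.88%), against 0.0444% of all genes with a promoter. The UPRE core TGACGTG occurred in Hspa5 and Sec24d, against 2.22% of all genes with a promoter. The ATF4 side has its own sequence, the C/EBP-ATF response element (CARE), searched on both strands as TGATGNAA. It occurred in 5 of the 34 (14.7%), namely Asns, Chac1, Herpud1, Nupr1 and Trib3, against 4.51% of all genes with a promoter. No match overlapped another motif. Those of Chac1 and Trib3 are shown because these genes take a large part in the differences below; both read as the reverse complement.
Chac1 (chr2:119351043-119351062, plus strand): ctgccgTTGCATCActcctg
Trib3 (chr2:152344033-152344052, minus strand): tcaggtTTACATCAgccggg

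Counts scaled to library size with TMM factors (CPM) and divided by exon length compare levels between genes. On this CPM per kb scale Hsp90b1 had the highest male median (234 over 12 libraries), followed by Herpud1 (226), Calr (208) and Hspa5 (168). In females Calr (209), Hsp90b1 (199), Herpud1 (164) and Hspa5 (130.3) led. The sensors were lower, with male medians of 7.26 for Ern1, 9.20 for Atf6 and 3.11 for Eif2ak3. The amino acid synthesis genes were near the floor: Asns had at most 2 counts and Phgdh at most 4 in a female library. Of the genes given in most detail, those of the chaperone and degradation arm lie, in GRCm38 (GENCODE M21), at chr9:106838312-106891979 for Manf (minus strand), chr16:17130138-17132383 for Sdf2l1 (minus), chr15:88819646-88826683 for Creld2 (plus) and chr19:6046576-6053712 for Syvn1 (plus). Those of the integrated stress response lie at chr2:152337422-152344032 for Trib3 (minus), chr2:119351229-119354381 for Chac1 (plus), chr7:45522916-45526268 for Ppp1r15a (minus) and chr10:59949669-59951834 for Ddit4 (minus). After low counts were removed, 33 genes of the group were tested in females, without Asns, Psat1, Phgdh, Nupr1 and Derl3. In males 36 were tested, without Psat1 and Phgdh.

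**Figure D1:**
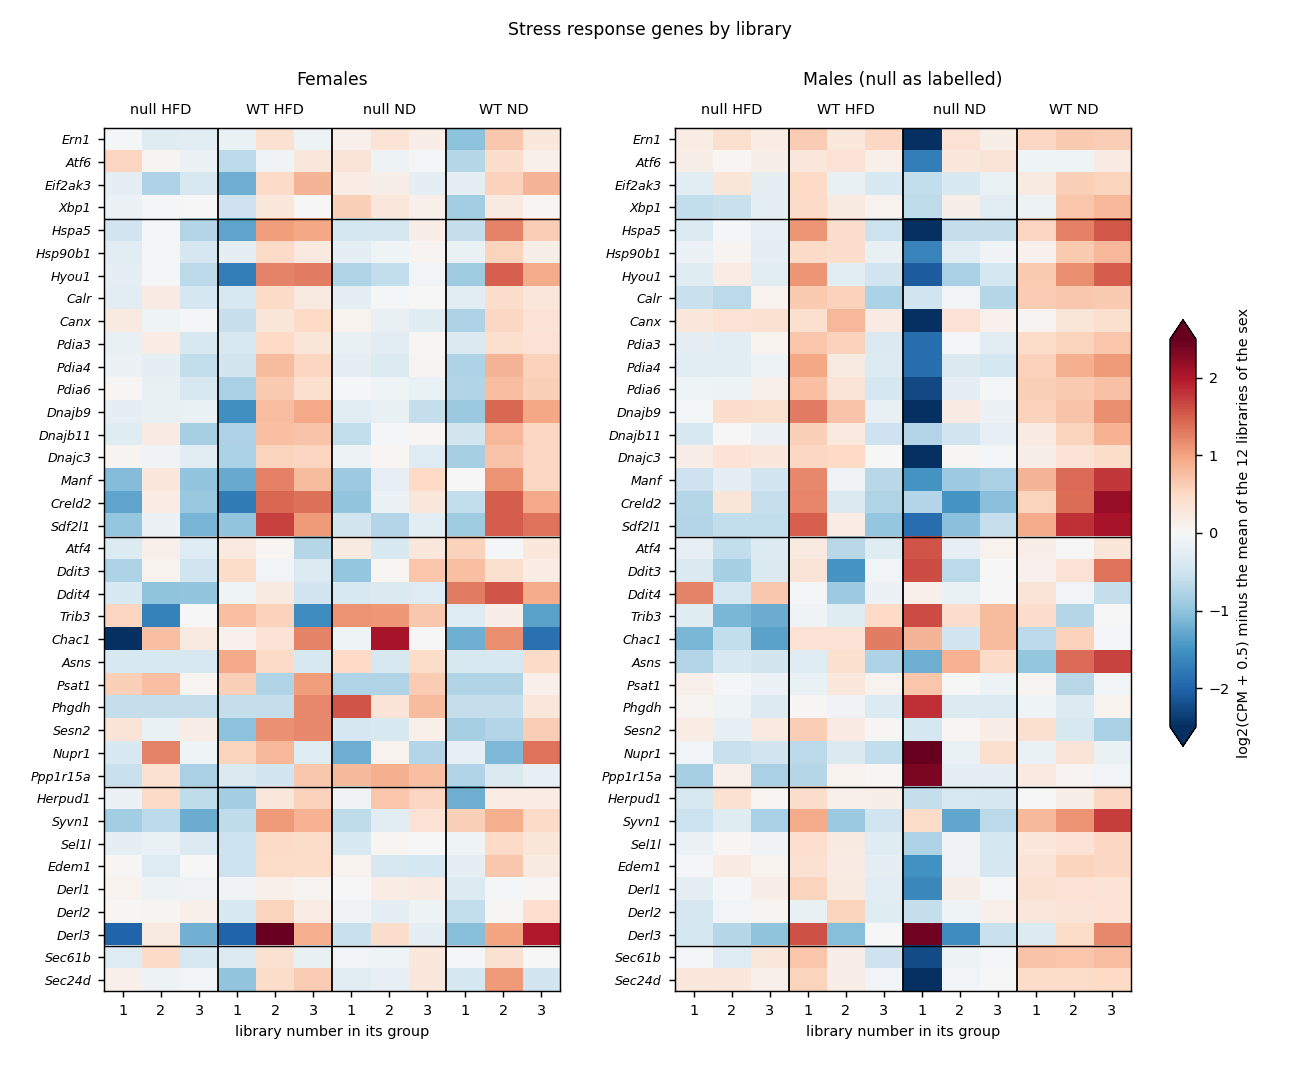
Level of each of the 38 genes (rows, grouped by role as listed in the text) in each of the 12 female (left) and 12 male (right) libraries, as log2(CPM + 0.5) minus the gene's mean over the 12 libraries of the sex; colours saturate at the ends of the bar. The chaperone block is red in WT libraries 2 and 3 of both diets in females and in WT ND and WT HFD library 1 in males, and male labelled null ND library 1 is blue for chaperones and red for several integrated stress response genes.

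The chaperone genes moved together from library to library. Averaged over the 14 genes, the centred log2 level was 0.85 and 0.71 in female WT HFD libraries 2 and 3, and 0.96 and 0.62 in female WT ND libraries 2 and 3. It was -0.93 in WT HFD library 1 and -0.59 in WT ND library 1, and between -0.58 and -0.00 in the 6 null libraries. Library 1 of each female WT group was the lowest of its 3 for 14 of 14 chaperone genes; these are the 2 female libraries with the highest mitochondrial shares, and the part of RNA quality was not tested. In males the average was 0.49, 0.89 and 1.14 in WT ND and 0.89, 0.31 and -0.43 in WT HFD, against -0.41, -0.38 and -2.09 in labelled null ND libraries 2, 3 and 1 and -0.28 to -0.04 in labelled null HFD. WT livers thus spanned both high and low chaperone levels, and no null library reached the level of the higher WT libraries.

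No gene of the group passed the test in any of the 8 pairwise comparisons within a sex, where passing is a Benjamini-Hochberg adjusted p below 0.05 in edgeR's quasi-likelihood test over all genes tested. Null was set against WT on HFD to ask what the deletion changes under the fat diet. In females 32 of 33 genes lay below 0 in null relative to WT (50.9% of all genes did), with a median log2 difference of -0.38 against -0.01 over all genes. At unadjusted p below 0.05, 2 were lower and 0 higher, against 1.45% and 0.989% of all genes. DESeq2 called 0 of the group, and either tool called 0.0169% of all genes. Libraries of the genotypes did not overlap for 1 gene lower and 0 higher, against 3.59% and 3.38% of all genes. In males labelled null 34 of 36 lay below 0 (51.5% of all genes), with a median of -0.31 against -0.01; 4 were lower and 1 higher at unadjusted p below 0.05, against 0.706% and 1.41% of all genes. EdgeR called 0% of all genes and DESeq2 0.121%, with 0 of the group. Libraries did not overlap for 2 genes lower and 0 higher, against 3.60% and 4.67% of all genes. The female median was -0.59 without WT HFD library 1, and the male median was -0.07 without WT HFD library 1 and -0.52 without WT HFD library 3.

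On ND the same comparison asks what the deletion changes without the fat load. In females 25 of 33 genes lay below 0 in null relative to WT (52.6% of all genes), with a median of -0.30 against -0.02. At unadjusted p below 0.05, 1 was lower and 2 were higher, against 3.36% and 2.98% of all genes. EdgeR called 0.127% of all genes and DESeq2 0.642%, with 0 of the group. Libraries did not overlap for 2 lower and 2 higher genes, against 6.1% and 5.18% of all genes. In males labelled null 28 of 36 lay below 0 (46.3% of all genes), with a median of -0.88 against 0.06, and 18 were lower and 2 higher at unadjusted p below 0.05. Of all male genes, 5.84% were lower and 12.7% higher at that level, and edgeR called 0.0134%. DESeq2 called 9 of the 36, all lower (Creld2, Dnajb11, Edem1, Hspa5, Hyou1, Manf, Pdia4, Sdf2l1 and Sel1l), and 2.87% of all genes. Libraries did not overlap for 23 lower genes and 1 higher, against 12.5% and 10.3% of all genes. Without labelled null ND library 1 the male median was -0.68, 31 of 36 lay below 0, 21 were lower at unadjusted p below 0.05 (7.24% of all genes) and edgeR again called 0, with a lowest adjusted p of 0.0855. Without labelled null ND library 2 edgeR called 5 of the 36, all lower (Edem1, Hspa5, Manf, Pdia4 and Sdf2l1), and 724 of all genes, or 4.77%. Without WT HFD library 1 it called Manf, and 0.0263% of all genes.

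**Figure D2:**
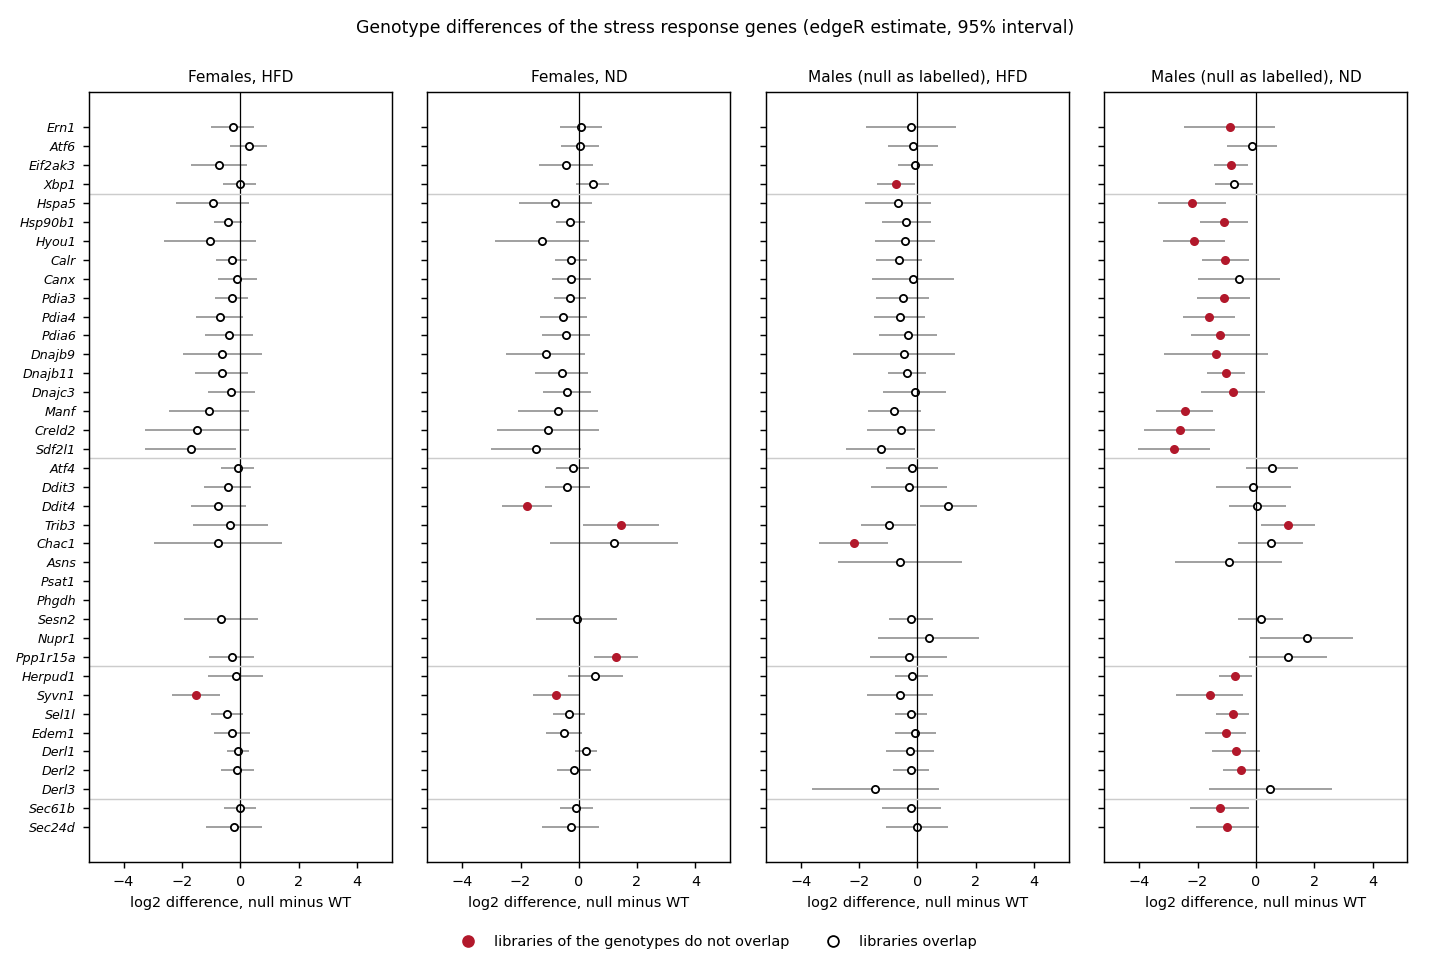
Log2 difference, null minus WT, of each gene (rows, grouped by role) in the 4 genotype comparisons, as edgeR's estimate with its 95% interval; red points mark genes whose 3 null and 3 WT libraries do not overlap. Males on ND have most red points on the negative side, 23 of 36, against 2 of 36 in males on HFD, 2 of 33 in females on ND and 1 of 33 in females on HFD; the shares of all genes on that side were 12.5%, 3.60%, 6.1% and 3.59%.

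HFD was set against ND within each genotype to ask what the diet changes. In female null mice 23 of 33 genes lay below 0 (48.7% of all genes), with a median of -0.17 against 0.01, and in female WT mice 21 of 33 (50.3%), with a median of -0.04 against -0.00. In null females 1 gene was lower and 0 higher at unadjusted p below 0.05, against 2.44% and 2.36% of all genes, edgeR called 0% of all genes and DESeq2 0.0254%, with 0 of the group. In WT females 1 was lower and 0 higher, against 1.82% and 1.67% of all genes, edgeR called 0.0169% of all genes and DESeq2 0.161%, with 0 of the group. Libraries did not overlap for 1 lower and 0 higher genes in WT females, against 3.97% and 3.89% of all genes. In males labelled null 10 of 36 lay below 0 (50.5% of all genes), with a median of 0.37 against -0.01; 5 were lower and 0 higher at unadjusted p below 0.05, against 8.49% and 2.65% of all genes. EdgeR called 0% of all genes and DESeq2 0.753%, with 1 of the group, Trib3. Libraries did not overlap for 3 lower genes (Atf4, Chac1 and Trib3) and 8 higher, against 5.72% and 6.37% of all genes. In male WT mice 29 of 36 lay below 0 (48.1% of all genes), with a median of -0.28 against 0.02; 3 were lower and 0 higher at unadjusted p below 0.05, against 2.88% and 3.61% of all genes. EdgeR called 0% of all genes and DESeq2 0.518%, with 0 of the group. Libraries did not overlap for 1 lower and 0 higher genes, against 10.1% and 12.9% of all genes. The female WT median was 0.26 without WT HFD library 1 and 0.24 without WT ND library 2. The median of the males labelled null was 0.10 without labelled null ND library 1.

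Among the sensors, Ern1 ran from 7.87 to 26.9 CPM in females, with 16, 13.4 and 13.6 CPM in null HFD, 14.7, 21.7 and 15.3 in WT HFD, 18.2, 21.1 and 18.6 in null ND, and 7.87, 26.9 and 20.2 in WT ND. The 3 null HFD libraries lay below the 3 null ND libraries, and the other female groups overlapped. In males Ern1 had 51.6, 60.3 and 52.1 CPM in labelled null HFD, 71.1, 54.6 and 65.2 in WT HFD, 1.61, 58.4 and 50.4 in labelled null ND, and 65.6, 72.2 and 70.2 in WT ND. On ND the labelled null libraries were all below WT, with library 1 far under the rest.

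Eif2ak3, the gene for PERK, had 13.8, 16.3 and 18.8 CPM in male labelled null ND, against 25, 32.2 and 31.4 in WT ND. The libraries did not overlap, and the log2 difference of -0.85 ± 0.27 (SE, n = 3 libraries each) did not pass edgeR's test (adjusted p = 0.213). Its HFD levels were 17.7, 26.5 and 18.2 CPM in labelled null and 30.4, 18.7 and 16.3 in WT males, which overlapped. In females it had 9, 6.01 and 7.92 CPM in null HFD, 4.25, 15 and 19.4 in WT HFD, 12.2, 11.7 and 8.90 in null ND and 8.8, 16 and 19.3 in WT ND. Libraries 2 and 3 of both WT groups were above every null library, and library 1 of each was not.

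Atf6 showed no such split. It had 64.2, 46.3 and 40 CPM in female null HFD, 27.8, 41.6 and 53.6 in WT HFD, 55.1, 40.4 and 42.5 in null ND and 26.9, 59.9 and 48.3 in WT ND. In males it had 85.4, 79.6 and 84.5 CPM in labelled null HFD, 93.8, 99.3 and 84.4 in WT HFD, 22.9, 92.8 and 95.8 in labelled null ND and 71.6, 71.1 and 88.7 in WT ND. Genotypes overlapped on both diets in both sexes, and labelled null ND library 1 was again the lowest male value.

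Xbp1 had 160.3, 168 and 209 CPM in males labelled null on HFD, against 343, 287 and 263 CPM in WT males on HFD. No library overlapped between the genotypes, and the log2 difference of -0.73 ± 0.30 did not pass (edgeR adjusted p = 0.9998). On ND it had 157, 270.4 and 204 CPM in labelled null and 224, 396 and 436 CPM in WT males, which overlapped in 1 library. In females it had 162, 173 and 179 CPM in null HFD, 124, 216 and 178 in WT HFD, 269, 219 and 196 in null ND, and 98.2, 209 and 186 in WT ND; null HFD lay wholly below null ND. Counts per gene do not separate the spliced from the unspliced Xbp1 mRNA.

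The 14 chaperones and foldases had the most uniform direction. On ND in males labelled null, 14 of 14 were below WT with a median log2 difference of -1.30, 11 of them at unadjusted p below 0.05, and 13 without overlap between libraries. Over all male genes 5.84% were lower at unadjusted p below 0.05, and 12.5% did not overlap in that direction. Without labelled null ND library 1 all 14 stayed below 0, with a median of -0.96 and 12 at unadjusted p below 0.05. Of all genes 7.24% were then lower at that level. The hepatocyte list differed between the same groups: its 8 genes summed to 42459, 84574 and 85497 CPM in labelled null ND, against 111781, 122186 and 143306 CPM in WT ND, without overlap. Of these 8 genes 7 were lower, with a median of -0.55, and the part of this difference in that of the chaperone genes was not tested. On HFD in males labelled null 14 of 14 were below WT with a median of -0.47, and in females 14 of 14 were below WT on HFD (median -0.63) and on ND (median -0.56). None of these 3 comparisons had a chaperone gene without overlap; the background was 3.60% in males on HFD, and 3.59% and 6.1% in females on HFD and ND.

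**Figure D3:**
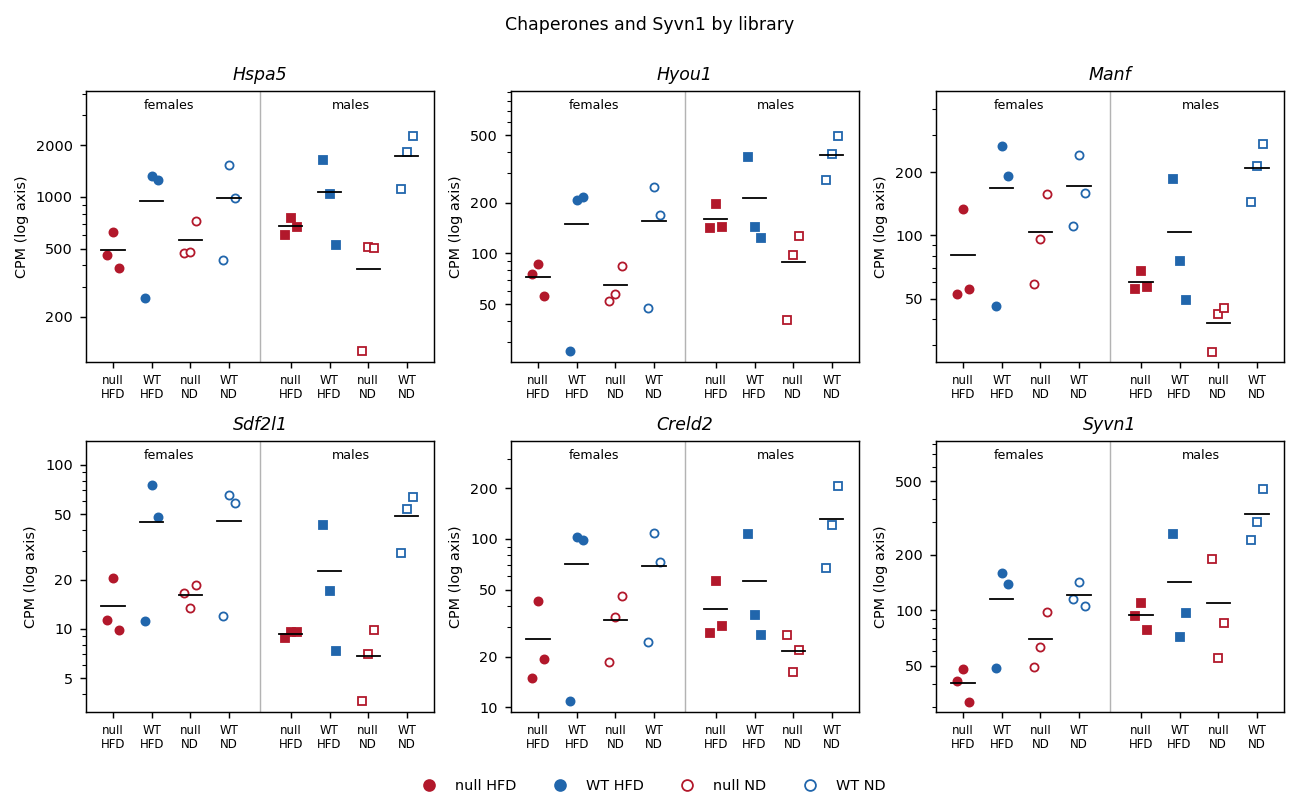
CPM (log axis) of 5 chaperone genes and Syvn1 in each library (points; circles females, squares males; red null, blue WT; filled HFD, open ND), with group means as lines. In males on ND the labelled null points lie below the WT points for all 6 genes, and in females 1 library of each WT group lies within or below the range of the null points for the 5 chaperone genes.

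Manf, which encodes a BiP-binding protein of the ER that is also secreted, had 28.0, 42.2 and 45.4 CPM in males labelled null on ND, against 144, 213 and 273 CPM in WT males on ND. Each WT library was more than any labelled null library. The log2 difference was -2.44 ± 0.45, with an edgeR adjusted p of 0.165. DESeq2 gave 4.18e-05, and over all alternatives the adjusted p ran from 4.18e-05 to 0.502. On HFD Manf had 55.4, 67.6 and 57.1 CPM in labelled null and 185, 75.4 and 49.4 CPM in WT males, and the groups overlapped. In females it had 52.4, 133 and 55.4 CPM in null HFD, 46.0, 265 and 192 in WT HFD, 59.0, 96.6 and 157 in null ND and 111, 243 and 160.0 in WT ND, with overlap on both diets.

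Sdf2l1, a partner of the co-chaperone ERdj3, had 3.61, 6.99 and 9.87 CPM in labelled null and 29.1, 54.1 and 63.8 CPM in WT males on ND. There was no overlap, and the log2 difference was -2.82 ± 0.57 (edgeR adjusted p = 0.165). On HFD the labelled null males had 8.78, 9.53 and 9.62 CPM, and WT males had 42.8, 17.0 and 7.38 CPM, with 1 WT library under all 3 labelled null libraries (difference -1.26 ± 0.54, edgeR adjusted p = 0.9998). In females Sdf2l1 had 11.3, 20.4 and 9.80 CPM in null HFD, against 11.2, 75.4 and 48.2 CPM in WT HFD. That difference was -1.71 ± 0.70 (edgeR adjusted p = 0.9998), with WT library 1 inside the null range. On ND it had 16.5, 13.5 and 18.6 CPM in null and 12, 65.4 and 58.8 CPM in WT females, and again WT library 1 was the low one.

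Creld2, an ER protein induced by ER stress, had 27.0, 16.1 and 21.9 CPM in labelled null and 67.4, 121 and 207 CPM in WT males on ND, without overlap (-2.61 ± 0.56, edgeR adjusted p = 0.165). The HFD levels were 27.8, 56.3 and 30.3 CPM in labelled null and 106, 35.2 and 26.9 CPM in WT males. Only library 1 of the WT HFD males was at the level of WT ND. The difference of HFD from ND in WT males was -1.23 ± 0.53 (edgeR adjusted p = 0.745). That of Manf was -1.02 ± 0.43 (edgeR adjusted p = 0.732), and both overlapped. In females Creld2 ran from 14.9 to 42.6 CPM in null HFD and from 10.8 to 103 CPM in WT HFD. On ND it ran from 18.7 to 46.1 CPM in null and from 24.5 to 108 CPM in WT females. The female genotypes overlapped on both diets.

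Hspa5 itself had 126, 508 and 506 CPM in labelled null and 1106, 1836 and 2257 CPM in WT males on ND. The groups did not overlap, and the difference was -2.19 ± 0.54 (edgeR adjusted p = 0.184), or -1.77 without labelled null ND library 1 (edgeR adjusted p = 0.0855; 0.00383 to 0.502 over all alternatives). Males on HFD had 604, 751 and 667 CPM in labelled null and 1642, 1037 and 527 CPM in WT males. In females it had 458, 624 and 387 CPM in null HFD, 258, 1319 and 1252 in WT HFD, 471, 479 and 726 in null ND and 427, 1528 and 989 in WT ND. In both female WT groups library 1 lay under the null range and the other 2 lay above it.

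Hyou1, the nucleotide exchange factor of BiP, also did not overlap between the genotypes in males on ND, with 40.4, 98.4 and 127 CPM in labelled null and 274, 386 and 497 CPM in WT males on ND (-2.12 ± 0.49, edgeR adjusted p = 0.178). Males on HFD overlapped, with 141, 195 and 144 CPM in labelled null and 371, 144 and 124 CPM in WT. In females it had 75.1, 87 and 56.2 CPM in null HFD, 26.3, 208 and 215 in WT HFD, 52.5, 57.5 and 84.5 in null ND and 47.7, 248.5 and 169 in WT ND. The other chaperone genes tested at unadjusted p below 0.05 in males on ND were Pdia4 (-1.61 ± 0.41), Pdia6 (-1.22 ± 0.47), Pdia3 (-1.11 ± 0.42), Hsp90b1 (-1.09 ± 0.38), Calr (-1.06 ± 0.37) and Dnajb11 (-1.03 ± 0.30). They encode 3 disulfide isomerases, GRP94, the lectin chaperone calreticulin and ERdj3. Their edgeR adjusted p-values lay between 0.185 and 0.226. Canx, the membrane lectin chaperone calnexin, was the chaperone gene with overlapping libraries there.

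With diet in males labelled null, 14 of 14 chaperone genes were higher on HFD than on ND, with a median log2 difference of 0.58, or 0.17 without labelled null ND library 1. The libraries of 6 of them did not overlap: Creld2, Dnajc3, Hspa5, Hyou1, Manf and Pdia4. Over all genes 6.37% were higher without overlap. Without labelled null ND library 1, 0 of the 14 were at unadjusted p below 0.05 in either direction. Hspa5 (0.83 ± 0.52) and Hyou1 (0.85 ± 0.47) had edgeR adjusted p-values of 0.535 and 0.4997, and differences of 0.41 and 0.51 without labelled null ND library 1. Edem1 of the degradation genes had 153, 182 and 170.1 CPM in labelled null HFD, against 55.7, 149.9 and 119 CPM in labelled null ND. It was also higher without overlap (0.64 ± 0.32, edgeR adjusted p = 0.472), or by 0.33 without that library. In WT males 12 of 14 were lower on HFD, with a median of -0.38. In females the diet median over the 14 was -0.07 in null and -0.03 in WT.

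Syvn1, the gene for the HRD1 ubiquitin ligase of ER-associated degradation, had the smallest p of the group in females on HFD. It had 41.5, 48.1 and 32.1 CPM in null HFD, against 48.7, 160.3 and 139 CPM in WT HFD, or 40.5 ± 8.07 and 116 ± 59.3 CPM (mean ± SD, n = 3 each). All 3 null libraries lay below WT, though WT library 1 was only just above the highest of them. The log2 difference was -1.52 ± 0.38 (95% interval -2.33 to -0.70; edgeR adjusted p = 0.9998). Without WT HFD library 1 it was -1.88 with an edgeR adjusted p of 0.0242, and the adjusted p ran from 1.13e-05 to 0.999994 over all alternatives.

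On ND Syvn1 had 49.1, 63.3 and 98.3 CPM in null and 116, 143 and 106 CPM in WT females, again without overlap (-0.79 ± 0.37, edgeR adjusted p = 0.783). The null HFD libraries also lay below the null ND libraries (-0.80 ± 0.38, edgeR adjusted p = 0.963). In males it had 189.6, 55.5 and 86.0 CPM in labelled null and 240.5, 300.4 and 455 CPM in WT on ND, without overlap (-1.59 ± 0.53, edgeR adjusted p = 0.213). Males on HFD had 93.8, 110.3 and 78.2 CPM in labelled null and 261, 71.4 and 96.3 CPM in WT males, which overlapped. In WT males the HFD minus ND difference was -1.22 ± 0.52 (edgeR adjusted p = 0.745).

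Of the 7 degradation genes tested in males, 6 were below WT in labelled null on ND without overlap (12.5% of all genes), with a median of -0.71 over the 7. Beside Syvn1 these included Edem1 (-1.03 ± 0.32), which recognises misfolded glycoproteins, Sel1l (-0.80 ± 0.26), the partner of HRD1, and Herpud1 (-0.71 ± 0.26), which binds the HRD1 complex. Derl1 and Derl2 were the other 2. Derl3 was the exception, with 23.5, 1.02 and 2.55 CPM in labelled null and 3.03, 5.63 and 9.83 CPM in WT males on ND. Only library 1 of the labelled null ND group was high. In females Derl2 was the single gene higher in null HFD than in null ND without overlap, with 28.2, 29.1 and 30.2 CPM in null HFD, against 26.1, 23.8 and 25.5 CPM in null ND (0.22 ± 0.27, edgeR adjusted p = 0.976). Over all genes 6.18% did so.

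For the pair of transport genes, Sec61b, a subunit of the translocon, was lower in labelled null than WT males on ND (-1.25 ± 0.47, edgeR adjusted p = 0.223). Sec24d, a cargo adaptor of COPII vesicles, also did not overlap there.

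Of the 11 integrated stress response genes, 7 were tested in females and 9 in males. On HFD 7 of 7 were below WT in null females (median -0.43) and 7 of 9 in males labelled null (median -0.30), and on ND 4 of 7 in null females (median -0.08). In males on ND 7 of 9 tested were higher in labelled null than in WT, with a median of 0.51. Without labelled null ND library 1 it was 4 of 9, with a median of -0.03. Atf4, the transcription factor of this arm, had 324, 93.5 and 115 CPM in labelled null and 122, 109 and 134 CPM in WT males on ND; Ddit3, which encodes CHOP, had 39.5, 7.58 and 12.4 against 13.5, 16.2 and 32.5 CPM. In both genes library 1 of the labelled null group was the highest of the 6 libraries, and the other 2 lay within or below the WT range.

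**Figure D4:**
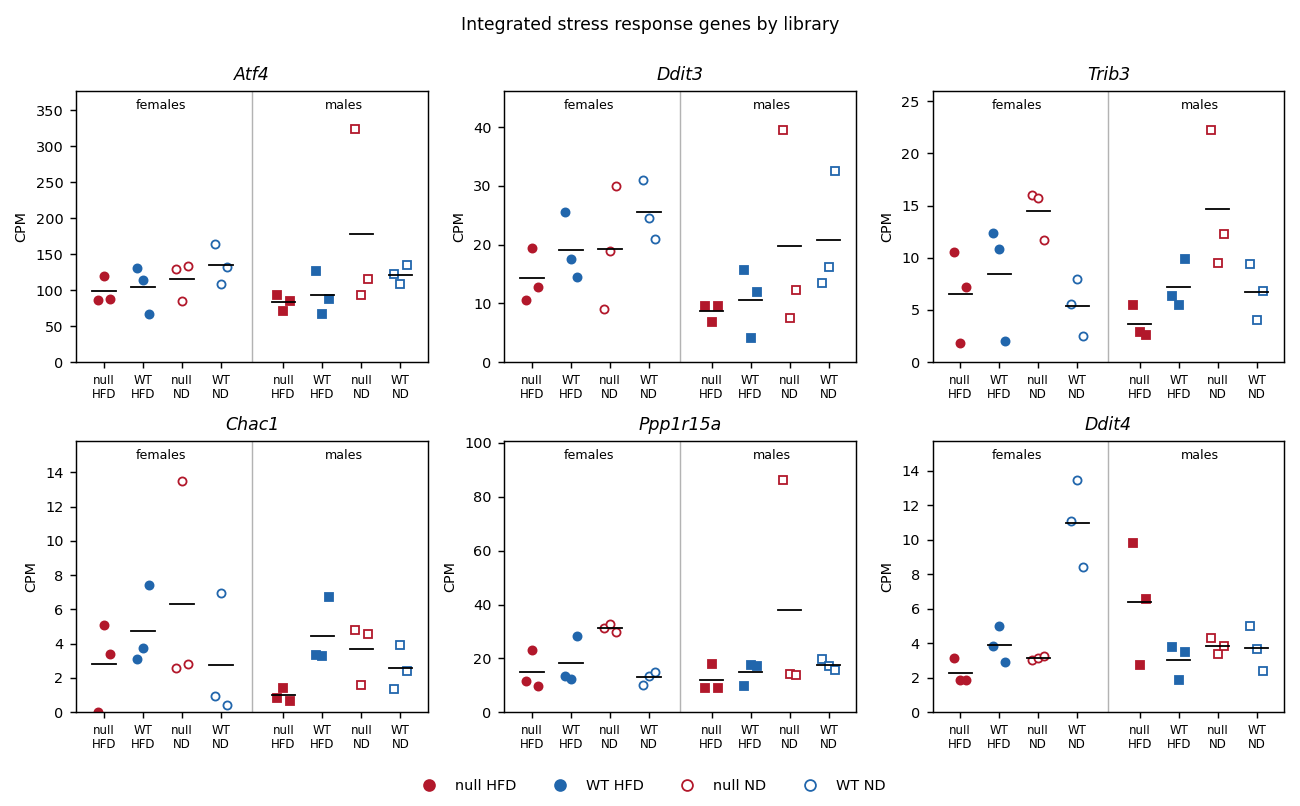
CPM (linear axis) of 6 integrated stress response genes in each library (points; circles females, squares males; red null, blue WT; filled HFD, open ND), with group means as lines. One male labelled null ND library is the highest of all for Atf4, Ddit3, Trib3 and Ppp1r15a, the 3 female null ND points for Ppp1r15a lie above the WT ND points, and the 3 female WT ND points for Ddit4 lie above all other female points.

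On HFD Atf4 had 93.3, 70.5 and 84.8 CPM in labelled null and 126, 66.8 and 87.7 CPM in WT males, and Ddit3 had 9.63, 6.77 and 9.53 against 15.7, 4.18 and 11.9 CPM. Both overlapped between the genotypes. In females Atf4 had 86.5, 120.3 and 87.9 CPM in null HFD, 131, 114 and 67.2 in WT HFD, 129, 84.9 and 134 in null ND and 164, 108 and 131 in WT ND. Ddit3 had 10.6, 19.4 and 12.8 CPM in null HFD, 25.5, 17.5 and 14.4 in WT HFD, 9.12, 18.9 and 29.9 in null ND and 31.0, 24.5 and 21.0 in WT ND. Neither gene separated any pair of female groups that differ in genotype or diet alone.

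Trib3, a pseudokinase and target of ATF4 and CHOP, had 22.2, 9.46 and 12.3 CPM in labelled null and 9.43, 4.01 and 6.84 CPM in WT males on ND. The groups just failed to overlap, at 9.46 against 9.43 CPM, and the difference was 1.10 ± 0.43 (edgeR adjusted p = 0.228), or 0.67 without labelled null ND library 1. It was the single gene of the 36 above WT without overlap, against 10.3% of all genes. On HFD it had 5.46, 2.85 and 2.60 CPM in labelled null and 6.32, 5.45 and 9.92 CPM in WT males (-0.98 ± 0.43, edgeR adjusted p = 0.9998). Set against ND, labelled null HFD was lower without overlap (-1.98 ± 0.44, edgeR adjusted p = 0.306). DESeq2 called that difference (adjusted p = 0.00565; 0.00565 to 0.839 over all alternatives).

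In females Trib3 had 16.1, 15.7 and 11.7 CPM in null ND, against 5.56, 7.99 and 2.52 CPM in WT ND, without overlap (1.45 ± 0.61, edgeR adjusted p = 0.702). On HFD it had 10.6, 1.85 and 7.16 CPM in null and 12.4, 10.8 and 2.06 CPM in WT females, which overlapped. The null HFD libraries lay below the null ND libraries (-1.12 ± 0.58, edgeR adjusted p = 0.963).

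Chac1, which degrades glutathione, had 0.845, 1.43 and 0.674 CPM in males labelled null on HFD, against 3.31, 3.31 and 6.70 CPM in WT males on HFD. The groups did not overlap, and the log2 difference of -2.19 ± 0.54 (95% interval -3.37 to -1.0016) had an edgeR adjusted p of 0.9998, or 0.226 without labelled null ND library 1. It ran from 0.0587 to 1 over all alternatives. With Xbp1 it was 1 of 2 genes of the group below WT without overlap there, among 36 (3.60% of all genes). On ND it had 4.82, 1.61 and 4.58 CPM in labelled null and 1.38, 3.90 and 2.39 CPM in WT males. HFD was below ND in labelled null males (-1.88 ± 0.55, edgeR adjusted p = 0.434), without overlap. In females the gene was at 0 to 13.5 CPM, and its groups overlapped.

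Ppp1r15a, the gene for GADD34, which directs dephosphorylation of eIF2α, had 31.3, 32.8 and 29.9 CPM in female null ND, against 10.2, 13.5 and 15.1 CPM in WT ND. All 3 null libraries were higher, and the difference was 1.27 ± 0.36 (edgeR adjusted p = 0.314). With Trib3 it was 1 of 2 genes above WT without overlap, among 33 (5.18% of all genes). On HFD it had 11.7, 23.1 and 9.80 CPM in null and 13.5, 12.5 and 28.4 CPM in WT females. Null HFD lay below null ND (-1.09 ± 0.35, edgeR adjusted p = 0.963), as did Ern1, Syvn1, Trib3 and Xbp1, which makes 5 of 33 genes without overlap, against 5.05% of all genes. In males 1 library, labelled null ND 1, stood at 86.2 CPM and the other 11 between 9.01 and 19.7.

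Female null ND libraries also had higher sums than WT ND of the immediate-early list (Fos, Egr1, Ier2 and the like, which respond quickly to handling), with 2014, 2878 and 2800 CPM over 9 genes, against 451, 1142 and 650.4 CPM in WT ND. The groups did not overlap, and the part of this list in the Ppp1r15a and Trib3 differences was not tested.

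Ddit4, which encodes the mTORC1 inhibitor REDD1, had 3.04, 3.14 and 3.23 CPM in female null ND, against 11.1, 13.5 and 8.40 CPM in WT ND, or 3.14 ± 0.0979 and 11 ± 2.54 CPM (mean ± SD, n = 3 each). These levels rest on 7 to 8 counts per null ND library and 20 to 27 per WT ND library. With so few counts the SD of null ND is imprecise. The log2 difference was -1.79 ± 0.40 (95% interval -2.65 to -0.93), with an edgeR adjusted p of 0.128, or 0.0546 in DESeq2. With Syvn1 it was 1 of 2 genes of the 33 below WT without overlap (6.1% of all genes). The WT HFD libraries, with 3.86, 5 and 2.89 CPM, also lay wholly below WT ND (-1.47 ± 0.39, edgeR adjusted p = 0.682), the single gene of the 33 to do so, against 3.97% of all genes. Null HFD had 3.13, 1.85 and 1.89 CPM. Counts per library were 7 to 12 in WT HFD and 4 to 8 in null HFD. The female WT ND group was the high one, and the other 3 groups stayed at or below 5 CPM.

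The core clock list divided the same groups. Its 13 genes summed to 745, 809.8 and 819 CPM in female null ND, 642, 573 and 732 in WT HFD and 405, 532 and 417 in WT ND; WT ND was below both without overlap. In males it summed to 2027, 1101 and 1410.1 CPM in labelled null ND, 989.6, 908 and 1249 in WT HFD and 610.0, 649 and 856 in WT ND, where the chaperone genes were highest. The part of clock gene level or collection time in these differences was not tested.

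In males Ddit4 had 9.80, 2.76 and 6.54 CPM in labelled null HFD, against 3.76, 1.85 and 3.49 CPM in WT HFD (1.06 ± 0.44, edgeR adjusted p = 0.9998), with overlap. Nupr1, a small stress-induced chromatin protein, had 8.56, 0.860 and 1.5 CPM in labelled null ND and 0.957, 0.534 and 0.577 CPM in labelled null HFD, which overlapped (HFD minus ND -2.29 ± 0.74, edgeR adjusted p = 0.434, or -0.71 without labelled null ND library 1). In WT males it had 0.452, 0.681 and 0.498 CPM on HFD, against 0.865, 1.41 and 0.854 CPM on ND, without overlap (-0.94 ± 0.79, edgeR adjusted p = 0.923), the single gene of the 36 there, against 10.1% of all genes. Sesn2, which encodes the leucine sensor sestrin 2, ran from 1.54 to 9.07 CPM in females and from 2.99 to 8.88 CPM in males, and its groups overlapped in all 8 pairwise comparisons. Asns, Psat1 and Phgdh, which synthesise asparagine and serine, stayed at or below 4.27 CPM in every library of both sexes.

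Labelled null ND library 1 enters both pairwise male comparisons of the labelled null ND group. It also enters the difference between the male genotype effects on HFD and ND. All male libraries were fitted together, and leaving it out also moved the test of a comparison without its group. For HFD against ND in WT males, edgeR called 0 genes with this library and 109 without it. The log2 level of this library was below the mean of the other 2 libraries of its group for 26 of 36 genes. The deviations ran from Dnajb9 (0.803 CPM, against 51.0 and 39.7) and Ern1 at the low end to Derl3 and Nupr1 at the high end. The median of these deviations was -0.63, against -0.05 over all 14873 genes tested. Across the 36 genes the deviation had a Spearman correlation of 0.55 with GC content. It was 0.44 across the 13640 tested genes that have a GC value. Genes are not independent and share this library. The same library had the highest plasma cell list sum in males, 82.7 CPM over 6 genes, against 5.43 to 10.2 CPM in the other 11. Its T, B and NK cell list summed to 74.4 CPM over 7 genes, against 8.12 to 26.5 CPM in the other 11. Its immediate-early sum was 2039.6 CPM, against at most 1164 CPM, and its clock sum of 2027 CPM and hepatocyte sum of 42459 CPM were the highest and the lowest among males. The part of these in the values of this library was not tested.

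The difference of the genotype effect on HFD from that on ND was tested directly. In females 20 of 33 differences were below 0 (48.6% of all genes), and no gene passed in edgeR, which called 0% of all genes. At unadjusted p below 0.05, 1 was negative and 0 positive, against 1.55% and 1.34% of all genes, and DESeq2 called 0 of the group and 0.093% of all genes. Ppp1r15a had the smallest p, with -1.57 ± 0.50 (edgeR adjusted p = 0.9995). In males 9 of 36 were below 0 (53.5% of all genes), and no gene passed in edgeR, which called 0% of all genes. At unadjusted p below 0.05, 2 were negative and 3 positive, against 3.21% and 1.44% of all genes, and DESeq2 called 0 of the group and 0.121% of all genes. Chac1 (-2.70 ± 0.75) and Trib3 (-2.08 ± 0.61) had a lower genotype effect on HFD than on ND. Manf (1.66 ± 0.60), Creld2 (2.05 ± 0.75) and Hyou1 (1.71 ± 0.67) had a less negative one, all with an edgeR adjusted p of 0.891. The effect of Trib3 changed sign, from 1.10 on ND to -0.98 on HFD. Without labelled null ND library 1 that of Chac1 was 0.28 on ND and -2.20 on HFD. The differences were then -2.48, -1.65, 1.48, 2.24 and 1.36, in the order above.

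Female and male effects were set against each other in a joint fit of the 24 libraries, in which 36 genes of the group were tested. For the genotype effect on HFD no gene passed in edgeR (1 at unadjusted p below 0.05, against 1.54% of all genes; 0.0133% of all genes called; DESeq2 0), with Ddit4 lowest at -1.84 ± 0.64, female minus male (edgeR adjusted p = 0.99996). For the genotype effect on ND no gene passed (7 at unadjusted p below 0.05, against 11.7% of all genes; 0.0332% of all genes called; DESeq2 0 and 0.279% of all genes), and 30 of 36 female minus male differences were above 0, with a median of 0.71 against -0.07 over all genes. Xbp1 (1.21 ± 0.42, edgeR adjusted p = 0.337), Manf (1.73 ± 0.74, 0.385), Ddit4 (-1.85 ± 0.61, 0.332) and Nupr1 (-2.97 ± 1.21, 0.372) were among the 7. Nupr1 had too few counts to be tested in females alone. Its male genotype difference on ND was 1.74, or 0.18 without labelled null ND library 1. With 1 library left out, its female minus male difference ran from -3.67 to -1.39 for genotype on ND. For diet in null mice it ran from 1.91 to 4.22. For the diet effect no gene passed in null mice (1 at unadjusted p below 0.05, Nupr1, against 4.65% of all genes; 0% called; DESeq2 0) or in WT mice (0 at unadjusted p below 0.05, against 3.71% of all genes; 0.00665% called; DESeq2 0). The kit goes with sex here and cannot be told apart from it.

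Genes of the same pathways beyond the 38 were taken as 6 further lists with 150 symbols, of which 142 were tested in each sex. No gene of these lists passed in edgeR in any comparison within a sex. In males on ND 108 of 142 were lower in labelled null than in WT, 34 lower and 4 higher at unadjusted p below 0.05, and DESeq2 called 5. Of all genes 46.3% were below 0, 5.84% lower and 12.7% higher at that level, and 2.87% called by DESeq2. The list of translocation, glycosylation and signal peptidase genes had 28 of 30 lower, with a median of -0.80, and that of other chaperones and foldases 19 of 26, with a median of -0.33. The smallest p-values belonged to Srprb (-1.26 ± 0.33), a subunit of the signal recognition particle receptor, Spcs2 (-1.26 ± 0.33), a signal peptidase subunit, and Bcl2l11 (1.59 ± 0.42), the gene for the pro-apoptotic protein BIM, each with an edgeR adjusted p of 0.185.

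In females on ND 86 of the 142 were lower in null, 4 lower and 7 higher at unadjusted p below 0.05, and DESeq2 called 2, Cebpb and Fgf21. Of all genes 52.6% were below 0, 3.36% lower and 2.98% higher at that level, and 0.642% called by DESeq2. Cebpb, a transcription factor partner of ATF4, differed by 1.31 ± 0.30 (edgeR adjusted p = 0.128), and Fgf21, a hepatic hormone and ATF4 target, by 3.66 ± 0.86 (edgeR adjusted p = 0.144). Vldlr, the very low density lipoprotein receptor, differed by -0.99 ± 0.24 (edgeR adjusted p = 0.177). On HFD 99 of 142 were lower in null females (3 lower and 1 higher at unadjusted p below 0.05, DESeq2 0). In males labelled null it was 112 of 142 (1 lower and 0 higher, DESeq2 0). Of all genes 50.9% in females and 51.5% in males were below 0. At unadjusted p below 0.05, 1.45% of all genes were lower and 0.989% higher in females, and 0.706% and 1.41% in males. DESeq2 called 0.0169% of all genes in females and 0.121% in males. Sec11c, a signal peptidase subunit, had the smallest p in those females (-0.97 ± 0.26, edgeR adjusted p = 0.9998), and Atf5, a relative of ATF4, in those males (-1.02 ± 0.36, edgeR adjusted p = 0.9998). They were followed by Ppp1r15b (0.40 ± 0.18) and Kdelr2 (-0.53 ± 0.24) in females and by Vldlr (-0.74 ± 0.38) and Mthfd2 (-0.84 ± 0.44) in males, each with an edgeR adjusted p of 0.9998.

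With diet, Fgf21 was higher on HFD than on ND in WT females (2.43 ± 0.93, edgeR adjusted p = 0.9999) and WT males (1.99 ± 0.69, edgeR adjusted p = 0.619), and lower on HFD in null females (-1.59 ± 0.68, edgeR adjusted p = 0.963). Its female interaction was -4.02 ± 1.15 (edgeR adjusted p = 0.9995). In males labelled null the smallest p belonged to Bbc3, the gene for PUMA (-1.46 ± 0.42, edgeR adjusted p = 0.428), and in WT males to Selk, an ER selenoprotein (-0.72 ± 0.20, edgeR adjusted p = 0.489). Next by p came Pck2 (-1.50 ± 0.53) and Bax (-1.43 ± 0.51) in males labelled null, both with an edgeR adjusted p of 0.434, and Bcl2l11 in WT males (1.30 ± 0.41, edgeR adjusted p = 0.562). In females they were Rpn2 (-0.42 ± 0.17) and Cars (-0.59 ± 0.25) in null mice, both at an edgeR adjusted p of 0.963, and Cth (-0.88 ± 0.36) and Bcl2l11 (1.31 ± 0.57) in WT mice, both at 0.9999. DESeq2 called Selk in WT males, where it called 0.518% of all genes, and none of these genes in the other diet comparisons.

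The differences were also listed by promoter element. The 11 genes with an ERSE or ERSE-II, all tested in males, had a median of -1.06 for labelled null minus WT on ND, and 10 of the 11 were below 0. The 21 tested genes with a promoter and neither element had a median of -0.80, and 14 of 21 were below 0. The 2 classes also differ in role. All genes with an ERSE or ERSE-II were chaperone or degradation genes, and all 11 integrated stress response genes held neither. On HFD the medians were -0.37 and -0.23 in males, and -0.40 and -0.35 in females. The 5 genes with a CARE had a median of 0.51 in males on ND, or 0.18 without labelled null ND library 1. In the diet comparison of males labelled null their median was -1.88, or -1.54 without that library, with 4 of 5 lower on HFD either way. Without it the male ND medians were -0.90 with an ERSE or ERSE-II and -0.51 with neither. These are descriptions without a test, and several genes with large differences, such as Sdf2l1, held no exact match in this window.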

How the data were processed

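Liver RNA of 24 libraries, 12 per sex, was given as counts of reads per gene symbol. The counts were made by the authors before they were deposited, with FastQC, Trimmomatic, GSNAP, Subread and edgeR on build GRCm38.p5, per the submitters' processing notes; order, settings, versions and strand are not stated there. Male RNA was prepared with RNeasy Plus Universal and TruSeq Total RNA kits, and female RNA with Trizol and NEB Next Ultra RNA, per the labels' protocols.

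From these counts, 1806 male and 2 female symbols that occurred more than once were summed, including Derl2 in males. Each sex was fitted on its own in edgeR 4.0.16 (R 4.3.3) over its 4 groups, with filterByExpr, TMM scaling and the robust quasi-likelihood test; p-values were Benjamini-Hochberg adjusted over 11830 female and 14873 male genes, with a threshold of 0.05. A joint fit of the 24 libraries tested 15043 genes for differences between the sexes. The steps were run on simulated counts with less spread than these libraries and without a divergent library. That run does not show how the steps perform at the spread of these data. Alternatives were DESeq2 1.42.0, RLE scaling, no filter on low counts, the replicate number as a block, the compared groups alone, the first row of duplicated symbols and each library left out. A term for the 2 sides of the first principal component of the female libraries was chosen after seeing the data. Library log2 CPM used a prior count of 2, and centred levels a pseudocount of 0.5. The lowest chi-square per degree of freedom between libraries of a group was 5.56, so these libraries differed by more than counting noise. It does not show whether they came from separate animals, and libraries of different groups were not compared.

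The members and lists were chosen with earlier results of these data known. Values in every library are given for the sensors, Xbp1, Atf4 and Ddit3. Up to 3 genes each way with the smallest p and no overlap were picked in each pairwise comparison. Their values are given at least for the libraries of the groups compared. Derl3 and Dnajb9 were added after their values were seen. Same-numbered libraries deviated together in every pair (r over 0.1) only for HFD against ND in WT mice. There r ran from 0.139 to 0.564 in females and from 0.11 to 0.127 in males. The ND library closest to an HFD library had the same number for 1 of 3 in females and 3 of 3 in males. Whether the numbers pair libraries is not stated, and the main fit had no term for them. Comparisons of genotype and of diet share libraries, and their values are not independent. Gene names and lengths came from GENCODE M21 on GRCm38 and promoters from RefSeq on GRCm38.p6.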

Additional observations from a re-analysis of the deposited data

How the results depend on the processing

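The median difference over the group kept its sign in each of the 63 values from settings that keep all libraries. With 1 library left out it turned positive for diet in WT females (without WT HFD library 1 or WT ND library 2) and for the female interaction (0.15 without WT ND library 1, 0.17 without WT HFD library 2, 0.01 without null ND library 3 and 0.02 without null HFD library 3), and kept its sign elsewhere. Counts of genes called were less stable, and the cause was not tested. With no filter on low counts edgeR called 12, 121, 30 and 38 genes in females (null against WT on HFD and ND, HFD against ND in null and WT) and 23 for the interaction, 35, 26 and 6 in males (labelled null against WT on ND, HFD against ND in labelled null and WT), and 12, 215, 84 and 33 for female minus male (genotype on HFD and ND, diet in null and WT). Of the group it then called 1 in each of 4 comparisons. In females these were Syvn1 for null against WT on HFD and Ppp1r15a for null against WT on ND. In males they were Manf for labelled null against WT on ND and Trib3 for HFD against ND in labelled null. It called 2 for the sex difference on ND, Creld2 and Manf. The number of genes tested without the filter was not recorded, so no share of all genes is given. DESeq2 called 76, 3, 19 and 11 genes in females (genotype on ND, diet in null, diet in WT, interaction), 18, 427, 112, 77 and 18 in males (genotype on HFD and ND, diet in labelled null and WT, interaction) and 42 for the sex difference on ND; of the group it called 9 on ND and 1 for diet in males labelled null. RLE scaling called 1 gene for diet in WT females. The compared groups alone gave 0 there, and 3, 0 and 21 in males (genotype on HFD and ND, diet in WT). A term for the female library sides, chosen after seeing the data, gave 1, 43, 1, 15 and 2 in the order of the female counts above.

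With the replicate number as a block, edgeR called 8 genes for female null against WT on ND (15 without it), 0 for diet in WT females (2 without it) and 1 for male labelled null against WT on ND (2 without it); 0 of the group were called under the block. Same-numbered libraries deviated together in every pair only for diet in WT mice, and whether the numbers pair libraries is not stated.

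Leaving out 1 library gave, for genes called, 2 to 4, 5 to 26, 0 to 0, 0 to 4 and 0 to 1 in females, and 0 to 0, 1 to 724, 0 to 28, 0 to 109 and 0 to 1 in males, each in the order genotype on HFD, genotype on ND, diet in null, diet in WT and interaction. Male extremes came without labelled null ND library 2 (724 and 28) and without labelled null ND library 1 (109). The sex differences gave 1 to 2, 3 to 219, 0 to 1 and 0 to 1. Of the group, 0 to 1 were called for female genotype on HFD and 0 to 5 for male genotype on ND. The 5 came without labelled null ND library 2, where 4.77% of all genes were called. At the female depth 5 of the 38 genes had too few counts to be tested, and no difference in them could be seen at this depth.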
